A study of Mus musculus with 122 samples.

Results

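The genes described here are 9 that write, read or remove DNA methylation in mouse cells: Dnmt1, Dnmt3a, Dnmt3b, Dnmt3l, Uhrf1, Tet1, Tet2, Tet3 and Tdg. They were chosen by name, as a list of the known enzymes and their partners, out of 52459 genes in the RNA-seq table. All 9 passed the filter on low values in every line. The study asked how CTCF, the insulator protein, and its germline paralog CTCFL act on the genome when one replaces the other. RNA-seq was done in 4 lines, each a selected clone of E14Tg2a embryonic stem cells, in U, I, D and ID conditions with 2 or 3 libraries per group, 38 in all.

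All lines, the untreated cells included, carried Ctcf fused to an auxin-inducible degron and eGFP on both alleles, Tir1 at Rosa26, and a doxycycline-inducible transgene with a FLAG tag at Tigre. The transgene was Ctcf in the CTCF line and Ctcfl in the CTCFL line. In the LCL line it joined the CTCFL N and C termini to the CTCF zinc fingers, and in the CLC line the CTCF termini to the CTCFL zinc fingers. U cells were untreated. I cells received 500 µM IAA, an auxin that triggers degradation of the endogenous CTCF protein. D cells received 1 µg/ml doxycycline, and ID cells received both. The sample labels give 24 h of treatment, and the methods of the study give 2 days where no other time is named. Cells without a transgene were not analysed here, so that an effect of doxycycline itself and of the transgene product cannot be told apart, and the same holds for IAA and loss of CTCF.

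DNMT1 copies methylation onto the new strand after replication, and UHRF1 brings it to hemimethylated DNA. DNMT3A and DNMT3B place methylation de novo, and DNMT3L, which has no catalytic activity of its own, stimulates them. TET1, TET2 and TET3 oxidise 5-methylcytosine, and TDG excises the oxidised bases so that repair can restore an unmethylated cytosine. CTCF is known to bind DNA in a methylation-sensitive way at a part of its sites, and embryonic stem cells grown with kinase inhibitors and LIF are known for low methylation and high Tet1 and Tet2. The messenger RNA was measured and not the methylation of DNA.

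The libraries held 6847072 to 49716771 reads, as recovered from the deposited values, and the 10 highest genes took 4.81% to 7.61% of a library. The transgene was checked first. Ctcfl was at 193, 225 and 206 normalized counts in the 3 U libraries of the CTCFL line and at 7764, 9398 and 7570 in its D libraries, and it was also higher in D and ID than in U in every library of the LCL and CLC lines. Ctcf was at 4712 and 4691 in U and 3845, 3850 and 3550 in D of the CTCF line. The transgene of that line is therefore not seen as a rise of Ctcf, so its libraries are named below as labelled D or labelled ID wherever a direction is drawn from them. The study does show the transgenic CTCF protein in D and ID cells, by western blot with a FLAG antibody and by flow cytometry. FLAG ChIP-seq of that line had 37167 regions with a peak in both replicates in D and 30335 in ID. IAA acts on the protein, and the Ctcf count does not check it. All 12 stem cell markers examined, Pou5f1 and Nanog among them, had a mean of at least 10 in every group, with a sum per library of 111133 to 351850. Of the other cell types, the sums were 331 to 1452 over 5 markers of primed or formative cells, 550 to 3431 over 8 of endoderm and mesoderm, 1678 to 4257 over 4 neural markers and 225 to 2158 over 4 of fibroblasts. The lines differed in some of these sums. That of endoderm and mesoderm was 2196 to 3431 in the CTCFL and CTCF lines and 550 to 875 in the LCL and CLC lines. The stem cell sum was higher in the LCL and CLC lines, at 257236 or more, than in the others, at 247644 or less. Fgf5 was at 0 in CLC I, Neurog2 in LCL I, LCL D and CLC ID, Col1a2 in LCL ID, and Twist2 in CTCFL I, CTCF U, LCL U, LCL I, CLC U and CLC I.

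In untreated cells the maintenance genes stood highest and Tet3 lowest in each line. Divided by the length of all annotated exons, Uhrf1 had a mean of 1790 to 4827 normalized counts per kb over the 4 lines, and Dnmt1 followed with 1125 to 1816. Tet3 was the last gene in every line, at 13.8 to 26.5, and Tet1 was above Tet2, at 400 to 687 against 121 to 417. Dnmt3l, known from germ cells and the early embryo, was at rank 3 or 4, at 553 to 1101. Most neighbours in this order did not overlap between libraries. The exceptions were Dnmt3b and Tet2 in the CTCF line, and Dnmt3a and Tet2 as well as Tet2 and Tdg in the CTCFL line.

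The untreated lines themselves differed in level. Uhrf1 was at 7945, 7176 and 7746 normalized counts in U of the CTCFL line and 7498 and 8533 in U of the CTCF line, but at 17765 and 17816 in the LCL and 20518 and 20601 in the CLC line. Tet2 was at 1900, 1865 and 2363 in the CTCFL, 3296 and 3914 in the CTCF, 7149 and 6824 in the LCL and 7138 and 6940 in the CLC line. Both genes were thus higher in the chimera lines without overlap. Dnmt3a was lower there, at 1335 and 1261 in LCL U and 934 and 976 in CLC U, against 2288, 2451 and 2524 in CTCFL U and 2430 and 2588 in CTCF U. The deposited names of all LCL and CLC libraries carry a tag used for culture with kinase inhibitors, and those of the CTCFL and CTCF lines do not. The methods of the study give the same medium with kinase inhibitors for all clones. A difference in culture or batch between these pairs of lines is therefore not excluded. These differences in level were not tested, since clone, culture and everything else that the libraries of a line share cannot be told apart. All fold changes below are within a line.

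With IAA, Tet1 and Tet2 fell in 3 lines, and methyltransferase genes fell in the LCL and CLC lines. Their cofactor gene Dnmt3l fell in the LCL and CTCF lines. A gene is said to have passed where the adjusted p of limma was under 0.01, and rose or fell is used of such genes alone. In the CTCFL line, U versus I, 2 of the 9 genes passed and both fell, Tet1 and Tet2, where 14.3% of all genes tested rose and 16% fell. In the CTCF line 3 passed and fell, Dnmt3l, Tet1 and Tet2, where 14.8% of all genes tested rose and 16.1% fell. In the LCL line 6 fell, Dnmt1, Dnmt3a, Dnmt3b, Dnmt3l, Tet1 and Tet2, where 14.1% of all genes tested rose and 14.3% fell. In the CLC line 3 fell, Dnmt1, Dnmt3b and Uhrf1, where 12.7% of all genes tested rose and 14.5% fell. The count of the CTCFL line was 1 without U replicate 3 or without I replicate 3, that of the CTCF line 1 without U replicate 2, and that of the CLC line 1 without either U library and 6 without I replicate 1.

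In U versus D of the CTCFL line 2 genes passed and fell, Dnmt3b and Dnmt3l, where 12.4% of all genes tested rose and 12.6% fell. In the libraries labelled D of the CTCF line 1 fell, Tet2, where 1.47% of all genes tested rose and 3.23% fell. In the LCL line 5 fell, Dnmt1, Dnmt3b, Dnmt3l, Uhrf1 and Tet2, where 5.15% of all genes tested rose and 6.2% fell. In the CLC line none of the 9 passed by limma, where 0.73% of all genes tested rose and 0.887% fell, although 4 had an unadjusted p under 0.05. On recovered reads 0 passed there by edgeR and 1 by DESeq2. The CTCFL count fell to 0 without U replicate 1, without U replicate 2 or without D replicate 3, and to 1 without U replicate 3 or without D replicate 1. The CTCF count fell to 0 without U replicate 2.

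With both agents, Tet1 and Tet2 were at their lowest in 3 lines. In U versus ID of the CTCFL line Dnmt3b rose and 4 genes fell, Dnmt1, Uhrf1, Tet1 and Tet2, where 22.2% of all genes tested rose and 23.1% fell. In the libraries labelled ID of the CTCF line 3 fell, Tet1, Tet2 and Tet3, where 18.9% of all genes tested rose and 21.2% fell. In the LCL line 7 fell, all but Uhrf1 and Tdg, where 18.5% of all genes tested rose and 19.4% fell. In the CLC line 1 fell, Tet3, where 8.81% of all genes tested rose and 7.9% fell, and no gene passed when either U or either ID library was left out. The CTCFL count was 3 without ID replicate 2.

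Between I and ID, which differ by doxycycline in cells that all received IAA, the CTCFL line again had 1 rise, Dnmt3b, and 4 falls, Dnmt1, Uhrf1, Tet1 and Tet2, where 13.2% of all genes tested rose and 16.6% fell. In the CTCF line Uhrf1, Tet1 and Tet2 were lower in the libraries labelled ID, where 10.1% of all genes tested rose and 15.5% fell. In the LCL line Uhrf1 rose and 5 genes fell, Dnmt3a, Dnmt3l, Tet1, Tet2 and Tet3, where 16.2% of all genes tested rose and 16.8% fell. In the CLC line 1 gene passed, Uhrf1, which rose, where 3.68% of all genes tested rose and 1.81% fell. Without CLC I replicate 1, 5 of the 9 passed there. The U libraries are shared by the first 3 comparisons of a line, and the I and ID libraries by the last with those, so that their values are not independent of each other.

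**Figure D1:**
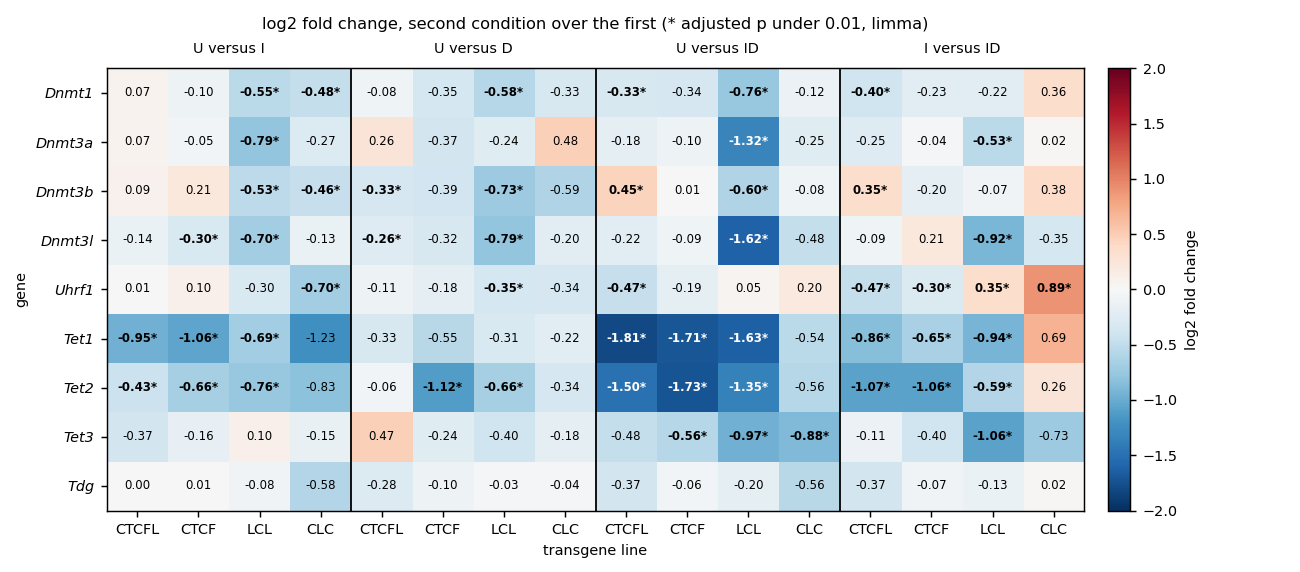
Log2 fold changes of the 9 genes (rows) in each line (columns) for the 4 comparisons, positive where the second condition was higher; an asterisk marks an adjusted p under 0.01 in limma. Tet1 and Tet2 hold the lowest values of the U versus ID block in the CTCFL and CTCF lines, at -1.50 to -1.81, while the CLC line stands at -0.54 and -0.56.

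Tet1, at chr10:62804570-62908996 on the minus strand (GRCm38, as are all positions), encodes the dioxygenase with the highest RNA level per kb of the 3. In the CTCFL line it was at 5499, 5498 and 7540 normalized counts in U, 3599, 3588 and 2427 in I, 4837, 4845 and 4933 in D and 1636 and 1853 in ID. In the CTCF line it was at 8562 and 9617 in U, 5324, 4152 and 3732 in I, 6002, 6755 and 5880 in libraries labelled D and 2822, 2786 and 2694 in libraries labelled ID. In both lines every I library was below every U library, and every ID library below every I library. The log2 fold change of U versus I was -0.95 (SE 0.12, adjusted p = 1.97e-06) in the CTCFL and -1.06 (SE 0.12, adjusted p = 1.17e-05) in the CTCF line. That of U versus ID was -1.81 (SE 0.14, adjusted p = 3.13e-10) in the CTCFL and -1.71 (SE 0.12, adjusted p = 7.39e-08) in the CTCF line. The libraries labelled ID were lower than those with IAA alone, at -0.65 (SE 0.11, adjusted p = 0.000366).

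For LCL cells, Tet1 was at 9250 and 7498 in U, 5053 and 5254 in I, 7019 and 6433 in D and 2276 and 3182 in ID. The order of the groups was the same as in the CTCFL and CTCF lines, with a U versus I value of -0.69 (SE 0.12, adjusted p = 0.000146) and a U versus ID value of -1.63 (SE 0.12, adjusted p = 2.11e-09). The U versus I call was lost in 1 fit of all lines. In the CLC line the U libraries stood at 10563 and 10668, the I libraries at 6644 and 3080, D at 9274 and 8895 and ID at 6124 and 8685. Both I libraries were below U, but they differed from each other, and the fold change of -1.23 (SE 0.30, adjusted p = 0.011) did not pass. The ID libraries of this line overlapped its I libraries, and the I versus ID value was 0.69 (SE 0.30, adjusted p = 0.154). Tet1 passed in no line with doxycycline alone by limma, with log2 fold changes of -0.33 in CTCFL, -0.55 in CTCF, -0.31 in LCL and -0.22 in CLC. DESeq2 on recovered reads called the CTCF value.

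Tet2, at chr3:133463679-133545139 on the minus strand, encodes the second dioxygenase of embryonic stem cells. It was at 1900, 1865 and 2363 in U, 1704, 1637 and 1236 in I, 2097, 1639 and 2146 in D and 712 and 725 in ID of the CTCFL line. The D libraries overlapped U, and the ID libraries were below all others, with a U versus ID value of -1.50 (SE 0.13, adjusted p = 3.93e-09). The smaller fall in I, -0.43 (SE 0.12, adjusted p = 0.00643), was lost without the filter on low values and in 1 fit of all lines.

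In the CTCF line Tet2 was at 3296 and 3914 in U, 3062, 1976 and 1931 in I, 1550, 1697 and 1697 in libraries labelled D and 1096, 1070 and 1091 in libraries labelled ID. It was the single gene of the 9 that fell with doxycycline there, at -1.12 (SE 0.15, adjusted p = 0.00125). The libraries labelled ID were the lowest, at -1.73 (SE 0.15, adjusted p = 7.58e-07) against U. The LCL libraries stood at 7149 and 6824 in U, 4031 and 4226 in I, 4427 and 4413 in D and 2661 and 2832 in ID. Here I and D were both lower than U, at -0.76 (SE 0.09, adjusted p = 6.16e-07) and -0.66 (SE 0.09, adjusted p = 2.02e-05), and ID was lower than either. The call in D was lost in 1 fit of all lines. For CLC cells, Tet2 went from 7138 and 6940 in U to 5548 and 2833 in I and 4285 and 5293 in ID, and neither difference passed.

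**Figure D2:**
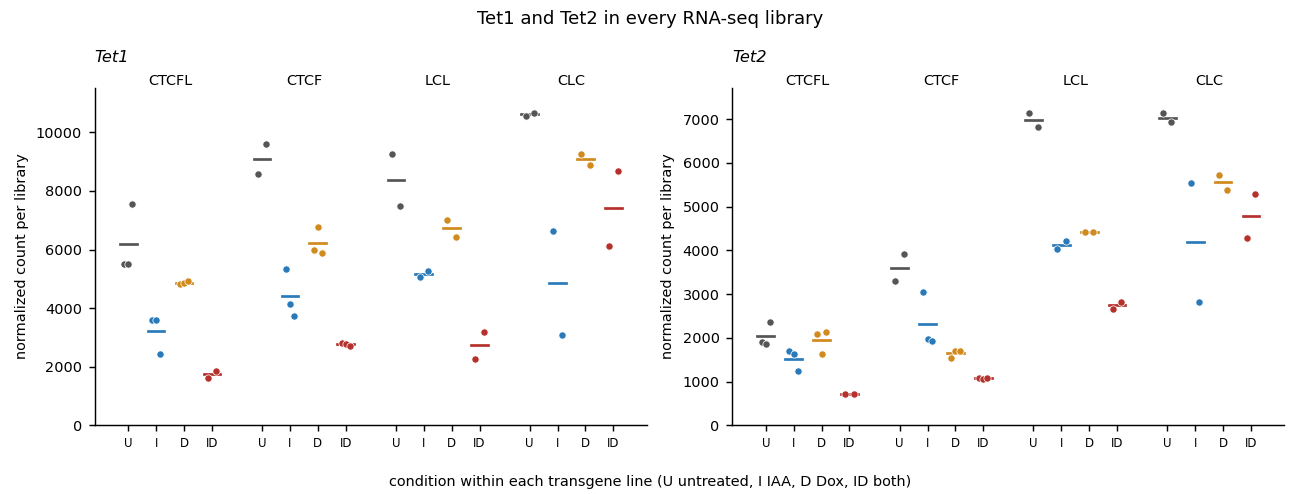
Normalized counts of Tet1 and Tet2 (vertical axes, from 0) in each of the 38 libraries (points), by line and condition, with the group mean as a line. In the CTCFL, CTCF and LCL lines the ID libraries lie below all U and I libraries, and in the CLC line the I libraries of Tet1 lie far apart, at 6644 and 3080.

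The 12 stem cell markers were counted beside Tet1 and Tet2. In U versus I, 0 rose and 9 fell in the CTCFL line (median -0.39), 0 rose and 6 fell in the CTCF line (median -0.42), 0 rose and 4 fell in the LCL line (median -0.17) and 0 rose and 5 fell in the CLC line (median -0.41). With doxycycline alone, 0 rose and 7 fell in the CTCFL line (median -0.44), 0 rose and 1 fell in the CTCF line (median -0.14), 1 rose and 0 fell in the LCL line (median 0.25) and 0 rose and 0 fell in the CLC line (median -0.02). Tet2 fell in the CTCF libraries labelled D, at -1.12, and in D of the LCL line, at -0.66. Neither Tet1 nor Tet2 passed in D of the CTCFL or CLC line, and Tet1 passed in D of no line. In U versus ID, 0 rose and 11 fell in the CTCFL line (median -1.04), 0 rose and 8 fell in the CTCF line (median -0.71), 1 rose and 5 fell in the LCL line (median -0.22) and 0 rose and 3 fell in the CLC line (median -0.17), of 12 markers tested, where the median of all genes was 0.08 in the CTCFL, 0.06 in the CTCF, 0.02 in the LCL and -0.0034 in the CLC line. The sum over the markers was 202090 to 220930 in U and 111133 to 116511 in ID of the CTCFL line, 232098 to 244226 and 161657 to 165126 in the CTCF line, 293882 to 300917 and 262824 to 268983 in the LCL line, and 344391 to 347364 and 297737 to 304077 in the CLC line. Of all genes tested in U versus I, 16% fell in the CTCFL, 16.1% in the CTCF, 14.3% in the LCL and 14.5% in the CLC line. With doxycycline alone, in the same order, 12.6%, 3.23%, 6.2% and 0.887% fell. In U versus ID 23.1%, 21.2%, 19.4% and 7.9% fell. The shares of all genes that rose are given with the comparisons above. None of the 12 markers was at 0 in any group. In these bulk samples fewer cells of a type and less RNA per cell cannot be told apart, and the part of the marker shift in the fall of Tet1 and Tet2 was not tested.

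Tet3, at chr6:83362373-83459084 on the minus strand, is the dioxygenase known for its role in the zygote. The fold change passed in U versus ID of the CTCF, LCL and CLC lines. For LCL cells, it was at 322 and 296 in U, 328 and 332 in I, 233 and 235 in D and 121 and 205 in ID, with -0.97 (SE 0.20, adjusted p = 0.000425) for U versus ID. Among CLC libraries, U stood at 226 and 236 and ID at 119 and 132, a fold change of -0.88 (SE 0.16, adjusted p = 0.00458), and in the CTCF line U stood at 403 and 462 and libraries labelled ID at 256, 300 and 322, a fold change of -0.56 (SE 0.13, adjusted p = 0.00235). In the CTCFL line the D libraries, at 656, 586 and 588, were all above the U libraries, at 432, 371 and 526, but this did not pass, at 0.47 (SE 0.16, adjusted p = 0.0276).

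Tdg, at chr10:82629828-82650799 on the plus strand, encodes the glycosylase that acts after the TET enzymes. It passed in none of the 16 comparisons by limma. Its lowest fold changes were in the CLC line, where U was at 726 and 811, I at 600 and 437 and ID at 505 and 535. The values of -0.58 (SE 0.15, adjusted p = 0.0142) for I and -0.56 (SE 0.15, adjusted p = 0.0225) for ID missed the threshold, and both passed with DESeq2 on recovered reads and in 1 fit of all 4 lines. In the CTCF line the 4 groups had means between 453 and 489.

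Dnmt3l, at chr10:78041947-78063622 on the plus strand, encodes the cofactor of the de novo enzymes. It moved most in the LCL line, where U was at 2582 and 2776, I at 1742 and 1564, D at 1515 and 1581 and ID at 883 and 860. It fell in both single treatments, at -0.70 (SE 0.10, adjusted p = 1.04e-05) for I and -0.79 (SE 0.10, adjusted p = 1.31e-05) for D, and furthest in ID, at -1.62 (SE 0.10, adjusted p = 1.19e-10). The CTCF line gave another picture. There U was at 3237 and 3342 and I at 2489, 2764 and 2775, a fall of -0.30 (SE 0.07, adjusted p = 0.0032), while libraries labelled ID stood at 3018, 3140 and 3104, all above the I libraries and all below U. The I versus ID value was 0.21 (SE 0.06, adjusted p = 0.0169). In the CTCFL line the 11 libraries lay between 2277 and 3085, and a small fall passed in D, -0.26 (SE 0.07, adjusted p = 0.00874), that was lost without the filter on low values and in edgeR on recovered reads.

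Dnmt3a, at chr12:3806007-3914443 on the plus strand, encodes a de novo methyltransferase. It fell in the LCL line alone among the tests of limma. LCL U was at 1335 and 1261, I at 754 and 749, D at 1100 and 1103 and ID at 527 and 510. The fold change was -0.79 (SE 0.11, adjusted p = 6.53e-06) in I and -1.32 (SE 0.11, adjusted p = 4.80e-09) in ID, and D did not pass at -0.24. In the CTCFL line D was at 2967, 3105 and 2656, above U at 2288, 2451 and 2524 in each library, and in the CLC line D was at 1403 and 1264 against 934 and 976 in U. Neither passed within its line, at 0.26 (SE 0.09, adjusted p = 0.0318) and 0.48 (SE 0.14, adjusted p = 0.0601). For CTCF cells, the libraries labelled D were lower than U, at 1956, 2090 and 1777 against 2430 and 2588, which did not pass either.

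Dnmt3b, at chr2:153649450-153687730 on the plus strand, encodes the other de novo enzyme and was the single member that rose against U. In the CTCFL line U was at 1297, 1332 and 1195, I at 1431, 1330 and 1316, D at 1059, 1024 and 959 and ID at 1659 and 1819. Dnmt3b was thus lower in D, in which endogenous CTCF was not degraded, -0.33 (SE 0.08, adjusted p = 0.00336), and higher in ID, 0.45 (SE 0.09, adjusted p = 0.000286). The groups did not overlap in either case. In LCL it fell in all 3 treatments, from 1364 and 1198 in U to 857 and 913 in I, 731 and 807 in D and 789 and 907 in ID. For CLC cells, U was at 1413 and 1406, I at 1068 and 981, D at 890 and 978 and ID at 1314 and 1349. Here I fell by the test, at -0.46 (SE 0.09, adjusted p = 0.00473), D missed it, at -0.59 (SE 0.09, adjusted p = 0.0105), and ID stood near U, at -0.08.

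Dnmt1, at chr9:20907209-20959888 on the minus strand, encodes the maintenance enzyme. For LCL cells, it was at 14005 and 12788 in U, 8964 and 9366 in I, 8610 and 9355 in D and 7194 and 8654 in ID. Every treated library was below both U libraries, and the 3 falls had log2 fold changes of -0.55 (SE 0.10, adjusted p = 0.00013), -0.58 (SE 0.10, adjusted p = 0.000259) and -0.76 (SE 0.10, adjusted p = 1.76e-06). Among CLC libraries, U was at 11568 and 11651, I at 8687 and 7952 and ID at 10733 and 10579. I fell, at -0.48 (SE 0.08, adjusted p = 0.00177), while ID lay between I and U. In the CTCFL line I did not pass and ID was the lowest group, at 6675 and 6552 against 7663, 8720 and 8514 in U, -0.33 (SE 0.07, adjusted p = 0.000741).

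Uhrf1, at chr17:56303321-56323486 on the plus strand, encodes the partner that directs DNMT1 to replicated DNA. For CLC cells, U was at 20518 and 20601, I at 12900 and 12470, D at 16722 and 15741 and ID at 24906 and 22243. The level fell with IAA, -0.70 (SE 0.09, adjusted p = 0.000385), and was higher in ID than in I, 0.89 (SE 0.09, adjusted p = 0.000978). Among LCL libraries, I was at 14055 and 14849 and ID at 17419 and 19407, also a rise, 0.35 (SE 0.09, adjusted p = 0.00406), while Dnmt1 did not pass there, at -0.22. In the CTCFL line the direction was the opposite: I was at 8168, 7828 and 7022 and ID at 5372 and 5662, -0.47 (SE 0.08, adjusted p = 4.28e-05). For CTCF cells, a small fall in libraries labelled ID, -0.30 (SE 0.08, adjusted p = 0.00849), was lost without the filter on low values, with TMM scaling and in edgeR on recovered reads.

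Dnmt1 and Uhrf1 are known to be made mostly in cells that replicate DNA, and 12 genes of S phase, such as Mcm2 and Pcna, were counted beside them. In U versus I, 3 rose and 1 fell in the CTCFL line (median 0.02), 3 rose and 2 fell in the CTCF line (median 0.03), 0 rose and 3 fell in the LCL line (median -0.14) and 0 rose and 8 fell in the CLC line (median -0.47), where the median of all genes was 0.04 in the CTCFL, 0.03 in the CTCF, 0.01 in the LCL and 0.0047 in the CLC line. Dnmt1 and Uhrf1 fell in the CLC line, where 8 of the 12 S phase genes fell. Both also fell in U versus D of the LCL line, where 0 of the 12 rose and 1 fell (median -0.09). Of all genes tested there, 5.15% rose and 6.2% fell. Both fell too in U versus ID of the CTCFL line, whose S phase counts follow. In U versus ID, 3 rose and 2 fell in the CTCFL line (median 0.14), 1 rose and 2 fell in the CTCF line (median 0.06), 4 rose and 3 fell in the LCL line (median 0.06) and 0 rose and 3 fell in the CLC line (median -0.29), and in I versus ID of the CLC line none of them passed by limma, with a median of 0.17. Of all genes tested in U versus I, 14.3% rose and 16% fell in the CTCFL and 14.8% and 16.1% in the CTCF line. In the LCL line it was 14.1% and 14.3%, and in the CLC line 12.7% and 14.5%. For U versus ID it was, in the same order, 22.2% and 23.1%, 18.9% and 21.2%, 18.5% and 19.4%, and 8.81% and 7.9%. The part of S phase in the Dnmt1 and Uhrf1 values was not tested.

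**Figure D3:**
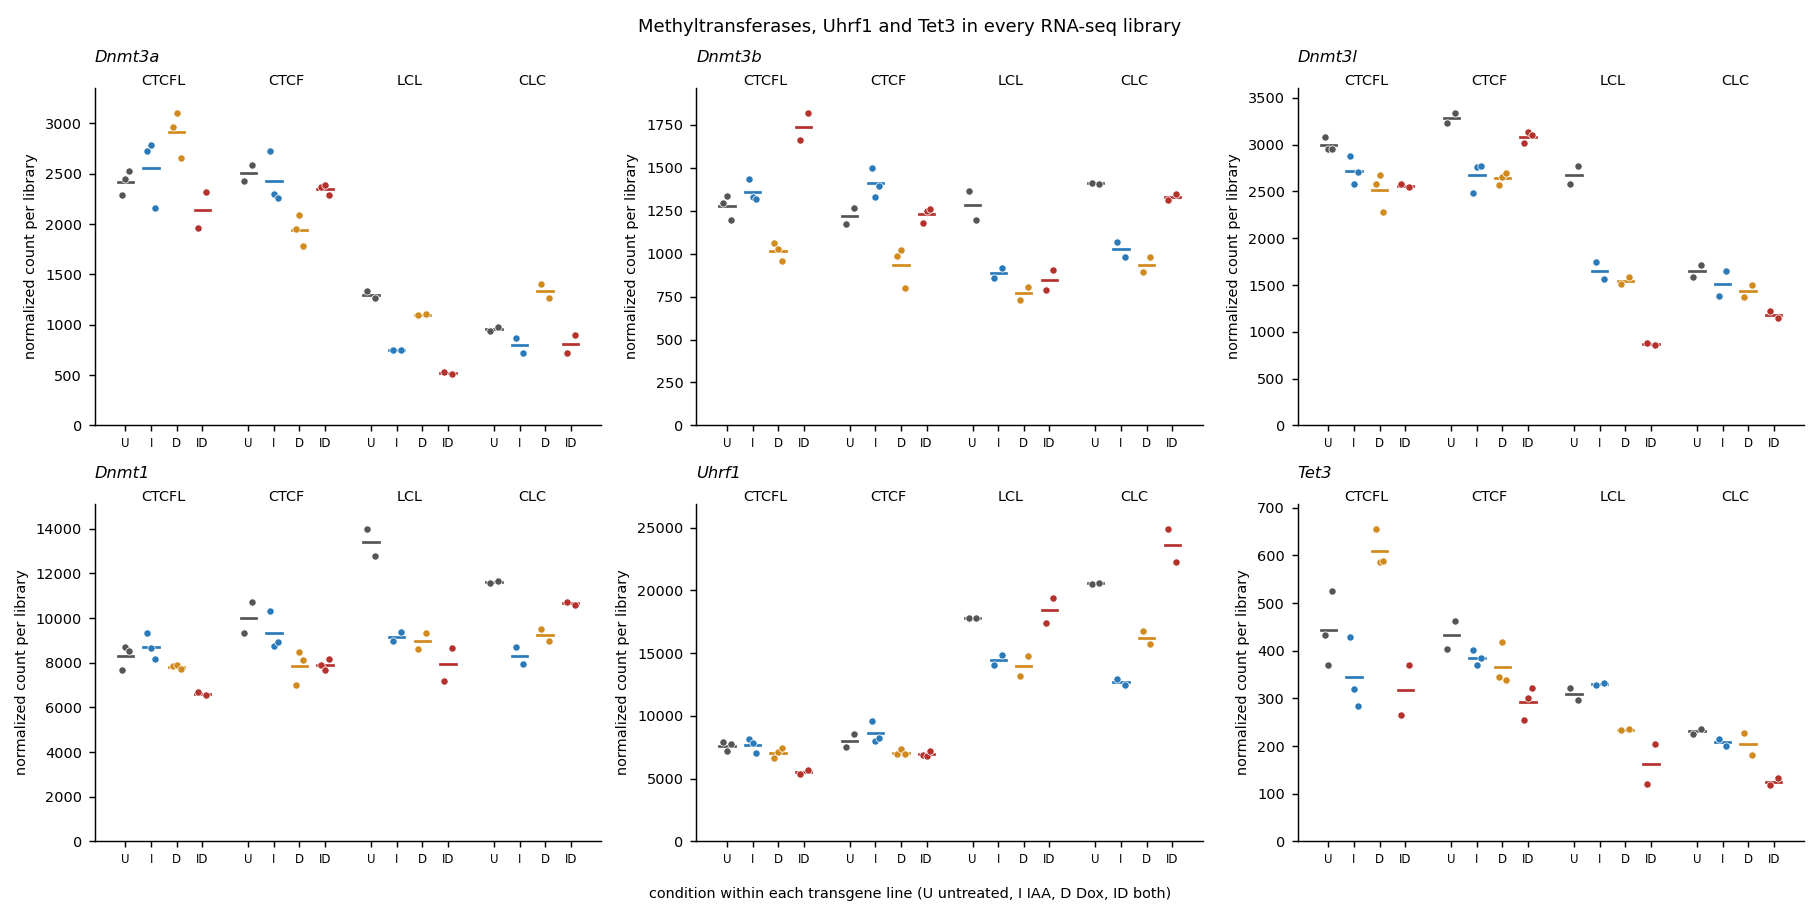
Normalized counts of Dnmt3a, Dnmt3b, Dnmt3l, Dnmt1, Uhrf1 and Tet3 (vertical axes, from 0) in each of the 38 libraries (points), by line and condition, with group means as lines. Dnmt3l of the LCL line falls from 2582 and 2776 in U to 883 and 860 in ID, Dnmt3b is highest in ID of the CTCFL line, and Uhrf1 has its 2 highest libraries in ID of the CLC line.

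Whether the lines responded differently was tested directly, as the difference of 2 log2 fold changes in 1 fit of all libraries. IAA targets the same tagged protein in every line, but how far it was lost in each was not checked here. Its effect in the CTCF line differed from that in the CTCFL line for none of the 9 genes, at an adjusted or an unadjusted p, where 1.63% of all genes differed. That of the LCL line differed for 4, where 8.51% of genes differed, and that of the CLC line for 3, where 10.5% did. All 7 were lower in the chimera line. They were in the LCL line Dnmt3a at -0.86 (SE 0.15, adjusted p = 0.000172), Dnmt3b at -0.62 (SE 0.13, adjusted p = 0.00114), Dnmt1 at -0.62 (SE 0.12, adjusted p = 0.000662) and Dnmt3l at -0.56 (SE 0.11, adjusted p = 0.000646). With CLC they were Uhrf1, Dnmt3b and Dnmt1. No TET gene was among them, so that the falls of Tet1 and Tet2 with IAA were not shown to differ between lines. The LCL and CLC lines also share the inhibitor tag in their library names, so line and whatever the tag stands for cannot be told apart.

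With doxycycline alone, the CTCFL line differed from the CTCF line for 2 genes, where 11.9% of all genes differed. Tet2 differed by 1.06 (SE 0.24, adjusted p = 0.00207) and Dnmt3a by 0.64 (SE 0.14, adjusted p = 0.00187), with both fold changes higher in the CTCFL line than in the CTCF libraries labelled D. The LCL line differed for 1, Dnmt3l, where 3.58% of genes did, and the CLC line for 1, Dnmt3a at 0.85 (SE 0.16, adjusted p = 0.000952), where 2.74% did. With doxycycline in IAA-treated cells, the CTCFL line differed for 1 gene, Dnmt3b at 0.55 (SE 0.13, adjusted p = 0.00236), where 8.34% of genes did. The LCL line differed for 2, Dnmt3l and Uhrf1, where 23.5% did. The CLC line differed for 6, where 24% did, with Tet1 at 1.34 (SE 0.29, adjusted p = 0.000438), Tet2 at 1.33 (SE 0.26, adjusted p = 0.000133) and Uhrf1 at 1.19 (SE 0.12, adjusted p = 1.71e-09). Each of these comparisons takes the CTCF libraries labelled D or labelled ID as its reference, in which Ctcf did not rise, so they share those libraries and that limit. The Tet1 and Tet2 values of the CLC line also rest on I libraries that lay far apart. Within that line I versus ID passed for neither by limma, at 0.69 (adjusted p = 0.154) and 0.26 (adjusted p = 0.525). Without CLC I replicate 2 the Tet2 value of I versus ID was -0.22.

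FLAG ChIP-seq shows where the transgenic protein was bound, in D and ID cells of the 4 lines and of 2 further chimeras, with 2 replicates in each group. CLL has the CTCF N terminus with the zinc fingers and C terminus of CTCFL, and LLC the CTCF C terminus with the rest of CTCFL. A site was a peak overlapped by a peak of the other replicate, and a gene was counted where the middle of a site lay within 3 kb of a start of one of its protein-coding transcripts. The members listed were not all the same with CTCF and CTCFL. In CTCF D 4 of the 9 had a site, Dnmt1, Dnmt3a, Dnmt3l and Tet1, where 26.1% of 21853 protein-coding genes had one. The ID sites of CTCF met 3, Dnmt3a, Dnmt3l and Tet1, where 19.9% did. In CTCFL D 4 had one, Dnmt3b, Dnmt3l, Tet1 and Tet3, where 30.9% did. The ID sites of CTCFL met the same 4, where 28.4% did. In LCL D it was 4, Dnmt3a, Dnmt3l, Tet1 and Tet3, where 27.7% did, and in LCL ID these and Dnmt1, where 36.8% did. In CLC D it was 2, Dnmt3l and Tet1, where 6.31% did, and in CLC ID these and Tet3, where 17.9% did.

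The other 2 chimeras, treated for 48 h by the labels, had fewer sites. CLL ID had a site at Dnmt3l and Tet1, where 12.7% of genes had one. None of the 9 had one in CLL D, where 0.654% of genes did, in LLC D, where 1.0% did, or in LLC ID, where 3.34% did. In these 3 groups replicate 2, which listed more peaks than replicate 1, had a peak at Dnmt3l and Tet1. Uhrf1, Tet2 and Tdg had no promoter site in both replicates of any of the 12 groups. Replicate 1 of CTCFL D alone listed a peak at Uhrf1 and Tet2, and replicate 2 of CLC ID alone one at Uhrf1.

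The sequences at 4 of these sites are printed, 1 listed in most groups and 3 listed with some of the proteins. Each is 300 bases of the plus strand of GRCm38 centred on the median of the summits in the groups that had the site, 5′ to 3′, and distances from a start are of that median, with a match to the CTCF core in capitals. The core searched was CCNNNAGNNGGC on both strands.
Dnmt3l, chr10:78043335-78043634, in 9 of 12 groups: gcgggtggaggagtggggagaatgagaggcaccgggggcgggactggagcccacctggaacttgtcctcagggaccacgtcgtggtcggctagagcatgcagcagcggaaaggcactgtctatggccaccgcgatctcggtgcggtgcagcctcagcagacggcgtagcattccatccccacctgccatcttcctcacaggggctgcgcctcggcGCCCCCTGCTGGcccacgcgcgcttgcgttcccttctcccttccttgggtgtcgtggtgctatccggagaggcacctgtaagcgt
Dnmt3a, chr12:3806161-3806460, in CTCF and LCL: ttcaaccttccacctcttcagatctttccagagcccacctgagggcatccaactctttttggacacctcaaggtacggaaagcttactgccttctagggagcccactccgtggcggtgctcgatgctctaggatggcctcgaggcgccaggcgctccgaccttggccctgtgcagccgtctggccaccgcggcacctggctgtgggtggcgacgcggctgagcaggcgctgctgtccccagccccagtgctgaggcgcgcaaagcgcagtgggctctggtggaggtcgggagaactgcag
Dnmt3b, chr2:153649799-153650098, in CTCFL: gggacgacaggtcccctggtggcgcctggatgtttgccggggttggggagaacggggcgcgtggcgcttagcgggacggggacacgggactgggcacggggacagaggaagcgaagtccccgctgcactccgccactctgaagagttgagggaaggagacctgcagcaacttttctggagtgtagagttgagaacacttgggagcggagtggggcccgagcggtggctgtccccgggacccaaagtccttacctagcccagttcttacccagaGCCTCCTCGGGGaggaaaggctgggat
Tet3, chr6:83456626-83456925, in CTCFL, LCL and CLC ID: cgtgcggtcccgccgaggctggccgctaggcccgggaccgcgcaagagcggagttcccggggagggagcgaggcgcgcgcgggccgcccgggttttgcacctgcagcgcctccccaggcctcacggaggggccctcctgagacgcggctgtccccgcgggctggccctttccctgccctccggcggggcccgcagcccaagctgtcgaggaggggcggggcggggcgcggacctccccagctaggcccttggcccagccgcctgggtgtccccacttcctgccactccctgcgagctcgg
The core was found in the Dnmt3l window, 71 bp from its centre, and in the Dnmt3b window, 129 bp from its centre, both on the minus strand. The Dnmt3b summit lay at 153650026 with doxycycline alone and at 153649873 with IAA added, and the match at 153650072 lay outside the peak of the latter, which ended at 153650067. The core was found in 56.9% of the windows of CTCF ID sites, 46.8% of those of CTCFL D and 8.61% of 32851 RefSeq promoter windows of the same length. The windows also differed in CpG, the dinucleotide at which the DNMT and TET enzymes act. The Tet3 window held 34 CpG, Dnmt3l 23, Dnmt3a 19 and Dnmt3b 19, where the median of the RefSeq promoter windows was 7. The quartiles of those windows were 3 and 20, so the Dnmt3a and Dnmt3b windows lay between them.

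The Dnmt3l site lay in an intron, 1198 bp after the start of an annotated transcript. It is thus within 3 kb of that start but not within 1 kb. Starts of other genes near it were not looked up, so the site is not assigned to Dnmt3l alone. Its peaks had a −log10 q of 61.2 and 45.9 in the replicates of CTCFL D, 44.7 and 36.6 in CTCF ID, 63.8 and 57.6 in LCL ID and 53.4 and 59.8 in CLC ID. All 4 proteins were thus listed there. The Tet1 site listed in 9 groups lay in an intron and is counted at a promoter by a transcript that starts within the gene. Its −log10 q was 31.6 and 31.7 in CTCF ID, 61.4 and 39.6 in CTCFL ID, 28.2 and 23.6 in LCL ID and 59.1 and 60.0 in CLC ID. At the start of the RefSeq Select transcript of Tet1 a site 69 bp before it was called in CTCFL D, at 9.51 and 5.75, CTCFL ID, at 3.42 and 4.17, and LCL ID, at 5.19 and 3.34. It was a site of both replicates in neither group of CTCF.

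The Dnmt3a site, 216 bp before a start, was called with the proteins that carry the CTCF zinc fingers. CTCF D had a −log10 q of 37.2 and 29.2 and CTCF ID of 29.7 and 21.0, while LCL D had 26.8 and 26.1 and LCL ID had 55.2 and 53.9. In the same order the fold enrichment was 10.1 and 5.95, 8.59 and 7.69, 5.70 and 5.48 and 6.52 and 6.59. No site of both replicates was called there with CTCFL or CLC, although replicate 1 of CTCFL D listed a peak at a Dnmt3a promoter. The RNA of Dnmt3a fell in LCL ID and did not pass in the CTCF libraries labelled ID, at -0.10.

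The Dnmt3b site was called in both replicates with CTCFL, 332 bp after the start, with a −log10 q of 9.40 and 5.80 in D and 6.18 and 5.04 in ID. Its RNA moved in opposite directions in those 2 conditions, as given above. A peak at the Dnmt3b promoter was also listed in replicate 1 alone of CLC ID and in replicate 2 alone of LCL ID. The strongest Tet3 site, 384 bp before a start, had a −log10 q of 16.0 and 12.1 with CTCFL in D, of 17.2 and 13.5 with it in ID, 5.11 and 6.15 in LCL D, 11.6 and 9.63 in LCL ID and 5.02 and 3.97 in CLC ID. No site of both replicates was called there with CTCF, although replicate 2 of CTCF D listed a peak at a Tet3 promoter. A site at the start of Dnmt1 was weak, at 4.05 and 8.58 in CTCF D and 4.95 and 9.42 in LCL ID. These differences between proteins are presence in lists of unequal length, and the strength was not tested between them.

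**Figure D4:**
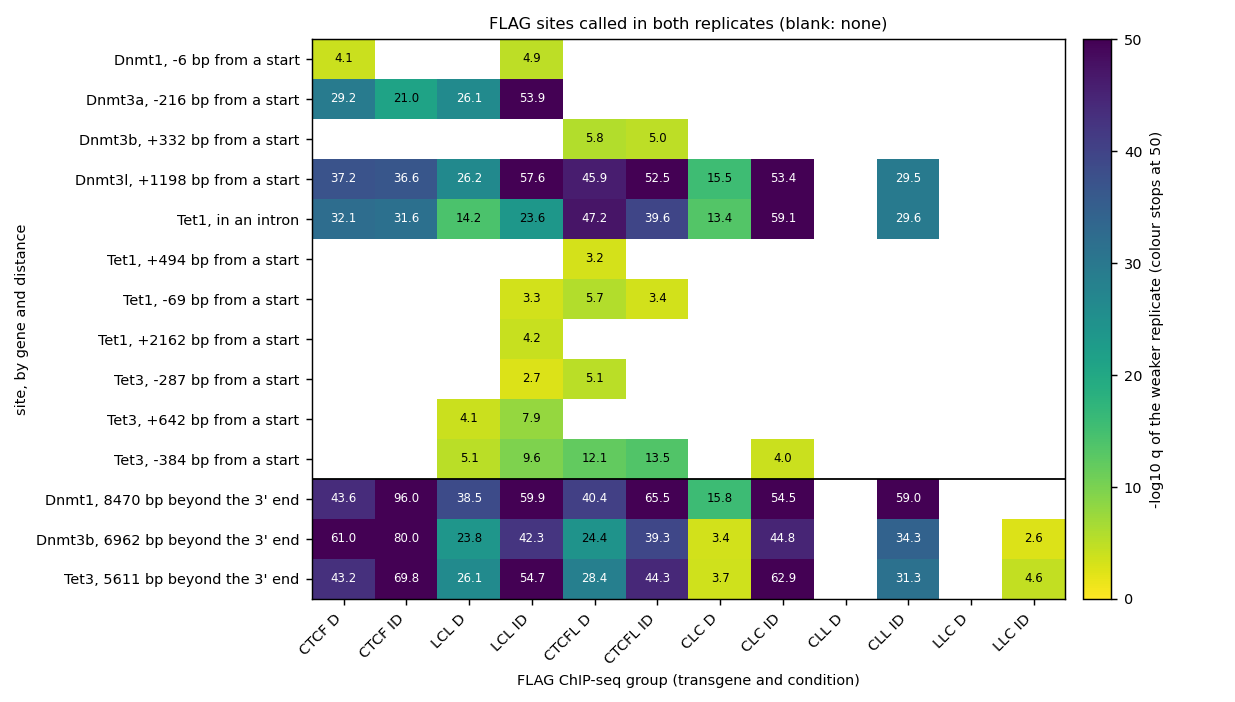
FLAG sites of both replicates at the promoters of the 9 genes, and at 3 sites beyond their 3′ ends (rows, with the distance), in the 12 FLAG groups (columns); cells give the −log10 q of the weaker replicate, and a blank cell means no site. The Dnmt3l site at 1198 bp and the intronic Tet1 site are filled in 9 groups, the Dnmt3a site in the CTCF and LCL groups, and the Dnmt3b site in the CTCFL groups, by sites of both replicates.

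The sites with the highest −log10 q near members lay beyond their 3′ ends, 8470 bp beyond Dnmt1, in 9 groups, 6962 bp beyond Dnmt3b, in 10, and 5611 bp beyond Tet3, in 10. The highest −log10 q at them was 103, 101 and 94.1. RAD21, a subunit of cohesin, was listed in both replicates of CTCF D at the sites beyond Dnmt3b, with a −log10 q of 2.51 and 1.13, and Tet3, with 3.03 and 4.16. No RAD21 region of both replicates met a promoter of the 9 genes in any of 8 groups. The RAD21 lists of a group were unequal, with 22773 and 3764 peaks in the replicates of CTCF D, and in replicate 2 alone of CLC D and LCL D a region met the promoters of Dnmt1 and Tet3.

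FLAG ChIP-seq was also done after RNase and after a mock treatment, in ID cells that were treated for 48 h by the labels. In CTCF ID after RNase, 2 members had a promoter site, Dnmt3l and Tet1, where 7.37% of genes did, and 3 in the mock sample, with Dnmt3a, where 14.6% did. The Dnmt3a site was listed in replicate 1 alone of CTCF ID after RNase, with a −log10 q of 3.77. At Dnmt3l the −log10 q was 26.0 and 10.7 after RNase and 18.1 and 20.1 in the mock. In CTCFL ID after RNase 1 member had one, Dnmt3l, where 4.59% of genes did, and in the mock 2, Dnmt3l and Tet1, where 5.22% did. Replicate 1 of CTCFL ID after RNase did list a peak at Tet1, and replicate 2 did not. The RNase lists of replicate 2 were shorter than the mock lists, at 8588 against 25385 peaks for CTCF and 2529 against 14351 for CTCFL, while those of replicate 1 were of like length, at 24904 against 23931 and 9208 against 8921.

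Genes that act on the same pathway were counted from lists. Of 14 regulators of DNA methylation, in U versus ID, 1 rose and 8 fell in the CTCFL line (median -0.55), 1 rose and 7 fell in the CTCF line (median -0.31), 4 rose and 4 fell in the LCL line (median -0.12) and 2 rose and 3 fell in the CLC line (median -0.07). Of all genes tested in U versus ID, 22.2% rose and 23.1% fell in the CTCFL and 18.9% and 21.2% in the CTCF line. In the LCL line it was 18.5% and 19.4%, and in the CLC line 8.81% and 7.9%. These shares and the medians of all genes given above apply to the lists below too. Prdm14, a repressor of the de novo enzymes in germ and stem cells, was at 1341 to 1457 in U, 793 to 910 in I and 254 to 260 in ID of the CTCFL line, a U versus ID value of -2.42 (SE 0.11, adjusted p = 5.60e-14). In D of the CTCFL line Prdm14 was at 597 to 640, a U versus D value of -1.16 (SE 0.10, adjusted p = 8.24e-09). It also fell in U versus I of the CTCF line, -1.25 (SE 0.09, adjusted p = 1.24e-07), and of the CLC line, -1.28 (SE 0.09, adjusted p = 2.79e-05). The CTCF libraries labelled ID were lower than U, at -1.48 (SE 0.09, adjusted p = 1.33e-08).

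Dppa3, also called Stella, which keeps UHRF1 away from chromatin, went the other way with IAA. It rose in U versus I by 1.11 (SE 0.11, adjusted p = 2.84e-08) in the CTCFL, 1.25 (SE 0.12, adjusted p = 1.78e-06) in the CTCF and 1.54 (SE 0.12, adjusted p = 3.33e-05) in the CLC line. With CTCFL it was lower, in D against U at -1.32 (SE 0.11, adjusted p = 5.96e-09) and in ID against I at -1.31 (SE 0.12, adjusted p = 2.06e-08). For LCL cells, it was at 5345 to 5832 in U and rose to 14015 to 15543 in ID. Hells, a chromatin remodeler needed for normal methylation, was at 12765 to 12911 in CLC U and fell in I, at 4299 to 6253, with -1.31 (SE 0.18, adjusted p = 0.000548). Trim28, a corepressor that keeps imprinted regions methylated, was at 24149 to 26566 in CTCFL U and fell in D, at 12237 to 12819. Ogt, whose product binds TET proteins, was lower in CLC D, at 1629 to 1644 against 4778 to 4781, and in CTCF libraries labelled ID.

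Of 8 genes of proteins that bind methylated CpG, in U versus ID, 2 rose and 4 fell in the CTCFL line (median -0.32), 1 rose and 1 fell in the CTCF line (median -0.0019), 1 rose and 1 fell in the LCL line (median -0.22) and 0 rose and 0 fell in the CLC line (median -0.07). Mbd2 was at 741 to 821 in U and fell in ID of the CTCFL line, at 357 to 382, -1.09 (SE 0.12, adjusted p = 9.16e-08). Zbtb4 was at 132 to 168 in U and fell in ID, at 31 to 84. Of 10 genes of base excision repair, which completes what Tdg begins, 3 rose and 1 fell in the CTCFL line (median 0.26), 2 rose and 0 fell in the CTCF line (median 0.03), 2 rose and 2 fell in the LCL line (median -0.02) and 0 rose and 2 fell in the CLC line (median -0.39). Neil2, a glycosylase of oxidised bases, was at 105 to 128 in LCL U and rose in ID, at 248 to 249. Neil1 was at 74 to 109 in LCL U and rose in I, at 190 to 231.

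The enzymes above use S-adenosylmethionine or 2-oxoglutarate, and 8 genes of their supply were counted. In U versus ID, 0 rose and 5 fell in the CTCFL line (median -0.30), 0 rose and 2 fell in the CTCF line (median -0.08), 3 rose and 2 fell in the LCL line (median 0.20) and 2 rose and 2 fell in the CLC line (median -0.21). Ahcy, which clears the product of methyl transfer, rose in ID of both chimera lines, by 1.33 (SE 0.11, adjusted p = 4.56e-09) in LCL and 1.35 (SE 0.09, adjusted p = 6.85e-05) in CLC. Mat2a, which makes S-adenosylmethionine, fell between I, at 31219 to 31387, and ID, at 12337 to 13800, of the LCL line. It also fell between I, at 8088 to 8609, and ID, at 3633 to 4193, of the CTCFL line. Idh1, which makes 2-oxoglutarate, rose between I, at 3594 to 3654, and ID, at 8254 to 9220, of the LCL line.

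The profiles of the 9 genes were set beside those of 14396 genes over 12 changes, the means of I, D and ID of each line minus the U mean of that line, which share the U libraries of a line in groups of 3. Among the members, Dnmt3a and Dnmt3l were the most alike, with a Pearson r of 0.82, then Tet1 and Tet2, with 0.81, and Dnmt1 and Dnmt3a, with 0.71. Dnmt3b and Tet1 had the lowest value, -0.52. Dnmt1 and Uhrf1, partners in maintenance, had 0.41. Over all genes, the closest profile to Tet1 was that of Atrn, with 0.97, to Tet2 that of Tacc2, with 0.91, to Tet3 that of Med13, with 0.88, and to Tdg that of Ddx6, with 0.91. For Dnmt3l it was Golga5, with 0.95, for Dnmt3b Eif4g1, with 0.94, for Dnmt3a Kif1a, with 0.93, for Dnmt1 Dsp, with 0.91, and for Uhrf1 Cdc27, with 0.88. These are the highest of many values and are given as a description.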

How the data were processed

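RNA-seq, FLAG and RAD21 ChIP-seq lists of one mouse embryonic stem cell study were used. Alignment was done by the authors with STAR on GRCm38, also called mm10, and they deposited gene counts divided by DESeq2 size factors, a signal and not raw counts. Each library's values were whole multiples of 1 read, so reads were recovered by division. All 38 libraries were whole within 0.1 read, although the step of CTCFL I replicate 2 and CTCFL ID replicate 2 is too near 1 to be claimed. The peak lists were deposited by the authors with −log10 q values and fold enrichment, with replicates called separately. Their lowest −log10 q was not the one the methods state for FLAG. The authors' other files were not used here.

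Genes with a mean of at least 10 in a line were tested with limma 3.58.1 in R 4.3.3 on log2(value + 1), 1 fit per line, with Benjamini-Hochberg adjustment over all genes. Differences between lines came from 1 fit of all libraries. Fold changes are on that scale. Alternatives included edgeR 4.0.16 and DESeq2 1.42.0 on recovered reads. The tests were checked on simulated counts. Labels do not say that replicates are separate cultures, so p-values measure the spread between these libraries. Positions and transcript starts came from GENCODE and RefSeq annotation of GRCm38, sequences from the RefSeq genome. The sequence of 1 site is not reported here.

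All 9 genes are named in each comparison. Of other lists, those that passed at 0.01 and moved by over 1 on the log2 scale in either direction are named, at most 5 per comparison. The members and lists were chosen with earlier results of these data known.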

Additional observations from a re-analysis of the deposited data

Results flagged for a closer look

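The response of a gene differed between lines, by the test of the difference itself in limma at an adjusted p under 0.01, in 20 cases. For IAA, the log2 fold change in LCL minus that in CTCFL was Dnmt1 -0.62, Dnmt3a -0.86, Dnmt3b -0.62 and Dnmt3l -0.56. In CLC minus CTCFL it was Dnmt1 -0.55, Dnmt3b -0.55 and Uhrf1 -0.70. For doxycycline, CTCFL minus CTCF was Dnmt3a 0.64 and Tet2 1.06, LCL minus CTCF was Dnmt3l -0.47, and CLC minus CTCF was Dnmt3a 0.85. For doxycycline in IAA-treated cells, CTCFL minus CTCF was Dnmt3b 0.55, LCL minus CTCF was Dnmt3l -1.13 and Uhrf1 0.64, and CLC minus CTCF was Dnmt1 0.59, Dnmt3b 0.57, Dnmt3l -0.56, Tet1 1.34, Tet2 1.33 and Uhrf1 1.19. Each line is 1 clone, so clone and transgene cannot be told apart in these differences. For the LCL and CLC lines the same holds for whatever the inhibitor tag in their library names stands for. The reference in the doxycycline comparisons is the line whose Ctcf count did not rise in libraries labelled D. No group had the 4 libraries needed to look for a library apart from the others.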

How the results depend on the processing

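Groups of 2 or 3 libraries limit all calls. The number of the 9 genes that passed moved by more than 1.5 times as follows. In CTCFL U versus I it was 1 without a filter on low values, 1 with all lines in 1 fit and 1 with a replicate block, against 2. In CTCFL U versus D it was 1 without the filter, 1 with the block and 1 in edgeR, against 2. In CTCF U versus D it was 2 with a pseudocount of 5, 2 with a minimum mean of 50, 4 in 1 fit and 4 in DESeq2, against 1. In CLC U versus I it was 6 in 1 fit and 5 in DESeq2, against 3. In CLC U versus D it was 1 with a pseudocount of 5, 1 with a minimum of 50, 3 in 1 fit and 1 in DESeq2, against 0. In CLC U versus ID it was 3 in 1 fit, 0 with the block and 3 in DESeq2, against 1. In CLC I versus ID it was 5 in 1 fit, 3 in DESeq2 and 6 with a crossed replicate block, chosen after seeing the data, against 1. The causes were not tested.

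Promoter sites within 1 kb were 2 in CTCF D (4 within 3 kb), 1 in CTCF ID, 0 in CLC D, 1 in CLC ID, 2 in LCL D and 0 in CLL ID, and 2 in CTCF D with an overlap of 50%. Leaving out 1 library gave 1 to 2 in CTCFL U versus I, 0 to 3 in U versus D and 3 to 5 in U versus ID, 1 to 3 in CTCF U versus I and 0 to 1 in U versus D. In the CLC line it gave 1 to 6 in U versus I, 0 in U versus ID and 1 to 5 in I versus ID. FLAG replicates taken alone gave 4 to 7 in CTCFL D and 0 to 2 in each of CLL D, LLC D and LLC ID.

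Replicate numbers did not pair the libraries: the correlation of deviations between same-numbered libraries was -0.064 to 0.065 in CTCFL, -0.297 to 0.162 in CTCF, -0.016 to 0.074 in LCL and -0.253 to 0.056 in CLC. With the block, 7, 3 and 10 differences between lines passed for IAA, doxycycline and doxycycline after IAA, against 7, 4 and 9.

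Log2 fold changes that changed sign had passed in neither setting, 48 in all, with a size of at most 0.22 in the alternative and an adjusted p of at least 0.233. With values rescaled by TMM Uhrf1 in CTCFL U versus I -0.0251, Tdg in CTCFL U versus I -0.0291, Tdg in CTCF U versus I -0.0472, Dnmt3b in CTCF U versus ID -0.0146, Dnmt3a in CLC I versus ID -0.00565 and Tdg in CLC I versus ID -0.00290. With edgeR on recovered reads Uhrf1 in CTCFL U versus I -0.0229, Tdg in CTCFL U versus I -0.0323, Tdg in CTCF U versus I -0.0470, Dnmt3b in CTCF U versus ID -0.0174, Dnmt3a in CLC I versus ID -0.00418 and Tdg in CLC I versus ID -0.0202. With DESeq2 on recovered reads Uhrf1 in CTCFL U versus I -0.0190, Tdg in CTCFL U versus I -0.0295, Tdg in CTCF U versus I -0.0192 and Dnmt3b in CTCF U versus ID -0.0190. Leaving out 1 library, the values with a change of sign had these ranges, Tdg in CTCFL U versus I -0.0647 to 0.0999, Uhrf1 in CTCFL U versus I -0.0386 to 0.0704, Tet2 in CTCFL U versus D -0.131 to 0.0630, Tet3 in CTCFL I versus ID -0.353 to 0.129, Tdg in CTCF U versus I -0.119 to 0.140, Dnmt3b in CTCF U versus ID -0.0422 to 0.0666, Tdg in CTCF U versus D -0.228 to 0.0303, Tdg in CTCF U versus ID -0.186 to 0.0719, Dnmt3a in CTCF I versus ID -0.0929 to 0.0421, Tdg in CTCF I versus ID -0.165 to 0.0243, Tdg in LCL U versus D -0.103 to 0.0330, Tdg in LCL U versus I -0.168 to 0.0158, Dnmt3b in LCL I versus ID -0.165 to 0.0353, Tdg in LCL I versus ID -0.251 to 0.000583, Uhrf1 in LCL U versus ID -0.0305 to 0.125, Tdg in CLC U versus D -0.123 to 0.0374, Dnmt3l in CLC U versus I -0.260 to 0.00266, Dnmt3a in CLC I versus ID -0.140 to 0.177, Tet2 in CLC I versus ID -0.220 to 0.749 and Tdg in CLC I versus ID -0.207 to 0.250. Of the other values of single genes, 45 came to pass and 20 ceased to pass under alternatives that kept all libraries, and 10 and 48 when 1 library was left out.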
